A study of Homo sapiens with 18 samples.

Results

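The genes described here are 32 human genes of glucose uptake, glycolysis and lactate export, with subunits and kinases of pyruvate dehydrogenase. They were taken by symbol from a table of 60683 Ensembl gene IDs, in which each of the 32 symbols matched exactly 1 ID. Expression was measured by RNA sequencing in 18 libraries of Cal27, a widely used cell line grown from a human tongue carcinoma of squamous type, which form 6 groups of 3. The groups were glucose-deprived medium with 10 nM recombinant human CGRP, glucose-deprived control medium, high-glucose DMEM with 5 mM 2-deoxyglucose (2-DG) and CGRP, high-glucose DMEM with 2-DG and no CGRP, high-glucose DMEM with CGRP, and high-glucose DMEM with neither agent, each for 24 hours. All groups are cultures of 1 tumour line, with no nerve, stroma or blood supply. The CGRP and control arms follow the series' own reading of its sample codes. The labels' growth text uses the abbreviation CM and does not spell it out, so what the control libraries received beyond the base medium is not known. Repetitions within a group are described as biologically independent, and p-values measure the spread between libraries. In the main fit this spread was estimated over all 18 libraries together. Libraries outside the groups compared therefore also enter the p-value of a fold change.

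Glucose enters most cells through facilitative transporters of the SLC2A (GLUT) family and is trapped by hexokinase. Phosphofructokinase sets the pace of the upper pathway and is activated by a fructose bisphosphate made by the PFKFB enzymes. This activator is a different isomer from the fructose bisphosphate that phosphofructokinase itself makes. The lower steps yield ATP and pyruvate, and lactate dehydrogenase with the SLC16A transporters (MCTs) disposes of the pyruvate as lactate. Carcinomas, squamous ones included, are known for running this route even with oxygen present, and hypoxia-inducible factor (HIF) and MYC are its best known transcriptional activators. 2-DG is a glucose analogue that hexokinase phosphorylates but that cannot go on through glycolysis. CGRP (calcitonin gene-related peptide) is a neuropeptide of sensory nerve endings whose receptor is formed by CALCRL and RAMP1.

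Libraries held between 28038260 and 32661768 counts. Levels are in CPM (a gene's counts relative to its library's total, scaled between libraries by TMM) and are given ± SD over 3 libraries. Fold changes are log2 values ± SE from 1 edgeR quasi-likelihood fit of all 18 libraries, and a gene is said to have risen or fallen where its Benjamini-Hochberg adjusted p over 18159 genes was at most 0.05. All 10 markers of squamous epithelium were found, with a summed level of 6065 to 7198 CPM per library, against 0.0345 to 4.71 CPM for 6 leukocyte markers. Markers of fibroblasts summed to 10.6 to 28.8 CPM, of endothelium to 1.79 to 43.9 CPM and of neurons and Schwann cells to 9.52 to 27.5 CPM. In a principal component analysis 2 libraries stood apart from their group mates on the second component (8.98% of the variance): deprived CGRP 2 at 39.03, against -8.77 and -8.74, and 2-DG control 2 at 23.71, against -9.1 and -5.77. In both, genes with more exon bases in total tended to read low, and genes with fewer to read high, relative to the mean of the group mates (Spearman -0.455 and -0.439 across 17919 genes, which are not independent replicates). Of the glycolytic genes, HK2, PFKFB2 and PFKFB3 read low and TPI1, GAPDH and PDHB high in deprived CGRP 2. Counts of changed genes are therefore also given without these 2 libraries.

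Per length, GAPDH was the most abundant of the 32 genes in high-glucose control cells, at 5246 ± 70.6 TPM. TPM is a relative measure like CPM, here per base of all annotated exons of a gene merged (GENCODE 29), not per transcript length. The order of genes depends on these lengths, which were 2700 bases for TPI1, 8571 for PKM and 6210 for LDHA. In CPM, PKM (3123) and LDHA (2098) lay above TPI1 (1054). Shares and ratios given per length rest on the same lengths. ENO1 (enolase 1), TPI1 (triosephosphate isomerase), PKM (pyruvate kinase) and LDHA (lactate dehydrogenase A) came next, at 2281, 1419, 1324 and 1228 TPM, and the libraries of neighbours in this order did not overlap. PGK1 and PGAM1, at 659.7 ± 15.9 and 651 ± 11.8 TPM, could not be ordered beyond their spread, nor could ALDOC, GPI and SLC16A1, at 133, 129 and 128 TPM. The upper, regulated steps lay lower. SLC2A1 (GLUT1) had 245 TPM, HK1 and HK2 (hexokinases) 152 and 86.9 TPM, and the phosphofructokinase subunits PFKP, PFKM and PFKL 105, 59.6 and 58.1 TPM. PFKM and PFKL overlapped between libraries. Of the PFKFB enzymes PFKFB3 had 35.4, PFKFB2 17.2 and PFKFB4 2.72 TPM. SLC2A3 (GLUT3), another GLUT often seen in tumours, was near the floor of detection, with group sums of 9 counts in deprived CGRP, 24 in deprived control, 19 in 2-DG CGRP, 14 in 2-DG control, 7 in high-glucose CGRP and 7 in high-glucose control libraries. It was the only one of the 32 genes that failed the filter on low counts, which leaves 31 genes tested. ALDOA, LDHB and TIGAR read low as well, at 5.90, 3.08 and 1.77 TPM. Each of them shares 33.4% to 42.6% of its exon bases on the same strand with another annotated gene, and how the authors' counting treated such bases is not given in the sources used here, so their values are uncertain.

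Glucose deprivation was compared with high glucose in both arms, which share no library. Without CGRP 27 of the 31 tested genes changed, 8 upward and 19 downward, where 60.6% of all 18159 genes did, 31.0% upward and 29.6% downward. The median log2 fold change of the 31 genes was -0.40, against 0.02 over all genes. Under CGRP 28 of 31 changed, 8 upward and 20 downward, where 60.4% of all genes did, 31.9% upward and 28.5% downward, with a median of -0.66 against 0.04 over all genes. The same 27 genes changed in both arms, each in the same direction, and GAPDH was the gene called under CGRP alone. The share of all genes that changed in both arms, or agreed in direction, is not given here. This overlap is therefore not shown to be particular to these genes. The difference between the arms is given with the interaction test of CGRP with medium. Without the 2 libraries that stood apart the counts were 29 without CGRP and 29 under CGRP, where 72.4% and 69.9% of all genes were called. Because whole cultures were sequenced in bulk, a change in every cell and a change in part of the cells cannot be told apart. Levels are relative to each library's total, so a change in total RNA per cell does not show in them.

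ALDOC, an isoform of the aldolase that splits the fructose bisphosphate made by phosphofructokinase, fell most. It had 34.5, 36.5 and 30.9 CPM in deprived CGRP libraries and 144, 141 and 139 CPM in high-glucose CGRP libraries. Without CGRP it had 27.4, 27.3 and 28.9 CPM in deprived control and 112, 102 and 108 CPM in high-glucose control libraries. The groups were far from overlapping, and the log2 fold change was -2.06 ± 0.077 under CGRP (adjusted p = 1.27e-12, edgeR) and -1.95 ± 0.077 without it (adjusted p = 2.78e-12, edgeR). LDHA, which turns pyruvate into lactate, had 795, 936 and 749 CPM in deprived CGRP libraries, against 2512, 2638 and 2500.4 CPM in high-glucose CGRP libraries. In the control arm LDHA had 834, 778 and 766 CPM in deprived and 2081, 2142 and 2072 CPM in high-glucose libraries. All 6 deprived libraries lay far below all 6 high-glucose ones, with log2 fold changes of -1.62 ± 0.082 under CGRP (adjusted p = 4.6e-11, edgeR) and -1.40 ± 0.081 without CGRP (adjusted p = 2.81e-10, edgeR). PGK1 (phosphoglycerate kinase, the first ATP-yielding step) had 462, 430.2 and 433 CPM in deprived control libraries, against 1021, 1003 and 978 CPM in high-glucose control libraries, a log2 fold change of -1.18 ± 0.069 (adjusted p = 3.53e-10, edgeR). Under CGRP its log2 fold change was -1.40.

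HK2, the inducible hexokinase of many tumours, moved the other way, to 292 ± 14.0 CPM in deprived control libraries, against 145 ± 5.25 CPM in high-glucose control libraries (log2 fold change 1.01 ± 0.15). Under CGRP the log2 fold change was 0.41 ± 0.15, and this call was lost in 7 of 26 alternatives, among them leaving out high-glucose CGRP 2 or 3 or deprived CGRP 1 or 3 (adjusted p up to 0.202, edgeR). The region around the start of ALDOC, LDHA and PGK1, the leading fallers, and of HK2, which rose most without CGRP, is shown from RefSeq (build GRCh38.p14, 250 bases before to 50 after the annotated start, in the direction of the gene). Capitals mark ACGTG or GCGTG on either strand (CACGT or CACGC on the strand shown), the core that HIF dimers bind. ALDOC lies at chr17:28576846-28577145 on the minus strand, LDHA at chr11:18394313-18394612, PGK1 at chrX:78103998-78104297 and HK2 at chr2:74833877-74834176 on the plus strand.
ALDOC: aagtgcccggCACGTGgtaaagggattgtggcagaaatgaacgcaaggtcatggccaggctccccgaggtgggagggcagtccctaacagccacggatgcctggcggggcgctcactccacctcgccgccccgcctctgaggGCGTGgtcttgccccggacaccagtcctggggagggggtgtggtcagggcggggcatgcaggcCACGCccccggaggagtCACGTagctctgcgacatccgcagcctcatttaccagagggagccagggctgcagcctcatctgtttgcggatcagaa
LDHA: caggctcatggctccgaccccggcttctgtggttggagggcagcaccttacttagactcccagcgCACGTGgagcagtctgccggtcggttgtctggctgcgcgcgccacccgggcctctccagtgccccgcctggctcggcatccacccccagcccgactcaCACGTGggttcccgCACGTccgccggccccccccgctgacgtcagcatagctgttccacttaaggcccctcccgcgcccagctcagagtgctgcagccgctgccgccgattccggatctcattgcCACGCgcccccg
PGK1: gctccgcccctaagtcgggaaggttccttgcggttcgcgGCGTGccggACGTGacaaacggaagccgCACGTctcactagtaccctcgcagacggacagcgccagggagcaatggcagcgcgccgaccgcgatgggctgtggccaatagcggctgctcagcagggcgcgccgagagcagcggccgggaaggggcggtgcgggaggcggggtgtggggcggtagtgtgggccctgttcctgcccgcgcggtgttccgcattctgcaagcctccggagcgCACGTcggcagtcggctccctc
HK2: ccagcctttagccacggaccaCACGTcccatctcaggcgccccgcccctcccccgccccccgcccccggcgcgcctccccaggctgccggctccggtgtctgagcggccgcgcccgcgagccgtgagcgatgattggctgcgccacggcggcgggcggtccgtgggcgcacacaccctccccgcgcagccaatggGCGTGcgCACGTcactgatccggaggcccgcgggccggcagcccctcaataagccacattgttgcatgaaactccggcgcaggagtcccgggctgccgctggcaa
These windows hold 5 matches in ALDOC, 6 in LDHA, 4 in PGK1 and 3 in HK2, where the palindrome CACGTG, an E-box, counts as 2 because it holds ACGTG on both strands. Both riser and fallers thus carry the core. Of the 32 genes 29 had a RefSeq window, and 21 of these 29 (72.4%) held ACGTG or GCGTG, against 48.4% of all 35116 windows of the same length. The GC-rich string GGGCGG, counted in the same way, was in 23 of 29 (79.3%), against 45.0% of all windows. A higher share than in all windows was thus not particular to the HIF core. All windows were not reduced to 1 per gene, as those of the 29 genes were. The core was present in 5 of 6 genes that rose with deprivation, 13 of 19 that fell and 3 of 4 others. HK1 and PGAM1, both of which fell, had none in the 1 window per gene searched. That window was the first one listed for the gene, and which start these cells use was not tested. The E-box CACGTG was in 4 of 29 windows, against 7.26% of all windows. A match is a string of letters and not a measured binding site.

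**Figure D1:**
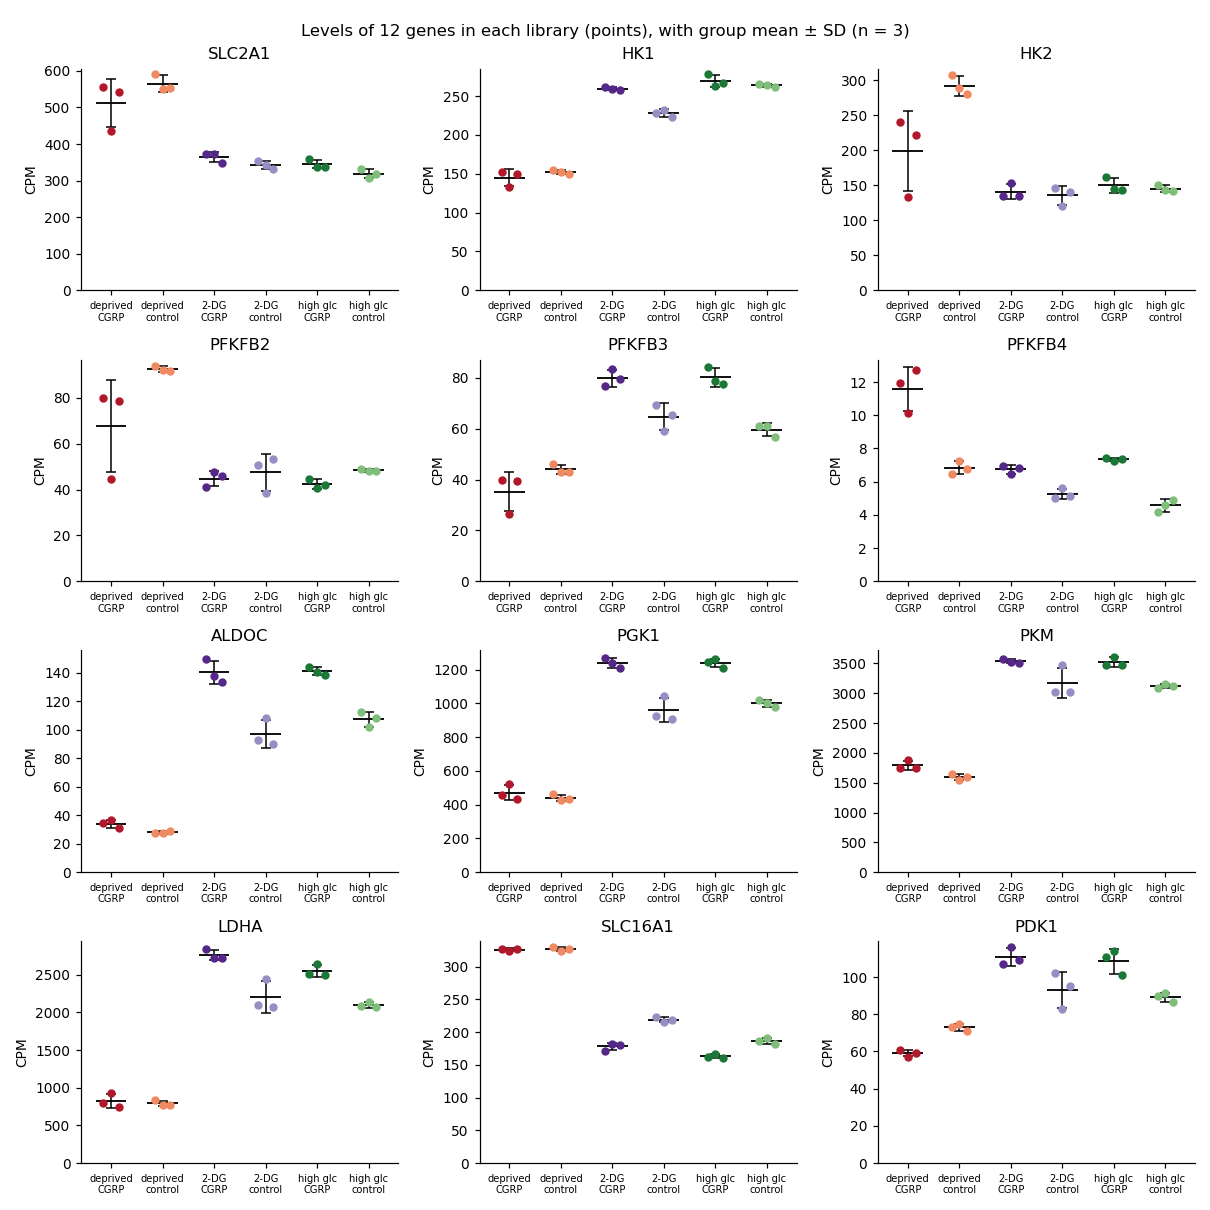
Level in CPM (vertical axis, from 0) of 12 genes in each library (points), with the mean (line) and SD (error bar) of the 3 libraries of a group, for deprived, 2-DG and high-glucose medium, each with CGRP left of its control. SLC2A1, HK2, PFKFB2 and SLC16A1 are highest in deprived medium and ALDOC, PGK1, PKM and LDHA lowest, while the 2-DG groups lie close to the high-glucose groups; the lone low deprived CGRP point of HK2, PFKFB2 and PFKFB3 is library 2.

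At the entry to the pathway SLC2A1 rose. It had 556, 437 and 543 CPM in deprived CGRP and 359, 338 and 338 CPM in high-glucose CGRP libraries. In the control arm it had 592, 549 and 553 CPM in deprived and 332, 307 and 318 CPM in high-glucose libraries. No deprived library fell as low as a high-glucose one, and the log2 fold change was 0.57 ± 0.075 under CGRP and 0.82 ± 0.076 without CGRP (adjusted p = 8.65e-08, edgeR). Of the 4 genes around glucose 6-phosphate, HK2 rose and 2 fell. HK1, the constitutive hexokinase, had 154, 152 and 149.5 CPM in deprived control and 265, 264 and 262 CPM in high-glucose control libraries, a log2 fold change of -0.79 ± 0.051 (adjusted p = 9.53e-10, edgeR). GPI, which isomerises glucose 6-phosphate, fell by 0.72 on the log2 scale without CGRP and by 1.03 under CGRP. PGM1, which links glucose 1-phosphate from glycogen to this pool, did not pass the test in either arm (log2 fold change -0.13 under CGRP and 0.03 without). Under CGRP PGM1 was called lower in 6 of 26 alternatives, among them without deprived CGRP 2 (log2 fold change -0.25, adjusted p = 0.000731, edgeR). The 2 hexokinases thus moved in opposite directions. Per length, HK2 made up 62.0, 51.1 and 60.6% of HK1 plus HK2 in deprived CGRP libraries and 67.4, 66.3 and 66.0% in deprived control libraries. It made up 36.6 ± 1.00% in high-glucose CGRP and 36.3 ± 0.704% in high-glucose control libraries, with no overlap between media (exact permutation p = 0.1 in each arm, two-sided, the smallest that 3 against 3 libraries can give). This share restates the values of HK1 and HK2 and is no separate support for their opposite moves.

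At the fructose phosphate steps 3 of 7 genes rose and 4 fell in both arms. All 3 phosphofructokinase subunits fell, PFKL by 0.60, PFKP by 0.32 and PFKM by 0.30 on the log2 scale without CGRP. Under CGRP they fell by 0.93, 0.63 and 0.22. The PFKFB enzymes, which make and break the fructose bisphosphate that activates phosphofructokinase, split. PFKFB2 rose, with a log2 fold change of 0.68 ± 0.16 under CGRP and 0.94 ± 0.16 without. PFKFB4 rose too, by 0.66 under CGRP and 0.58 without. PFKFB3, the isoform with the strongest kinase over phosphatase activity, fell, with a log2 fold change of -1.19 ± 0.11 under CGRP and -0.44 ± 0.11 without. TIGAR, a phosphatase of fructose bisphosphates, is counted among the 3 risers with PFKFB2 and PFKFB4, and its value is uncertain because of the shared exon bases. Its call under CGRP, at 2.76, 3.51 and 3.58 CPM in deprived CGRP and 2.45, 2.35 and 2.70 CPM in high-glucose CGRP libraries, was lost in 17 of 26 alternatives. Per length, PFKFB3 made up 40.4 ± 1.13% of PFKFB2, PFKFB3 and PFKFB4 together in deprived CGRP and 41.4 ± 0.896% in deprived control libraries. Its share was 71.0 ± 0.470% in high-glucose CGRP and 63.9 ± 1.21% in high-glucose control libraries. PFKFB2 made up 52.2 ± 0.440% in deprived control libraries, against 31.1 ± 0.800% in high-glucose control libraries (exact permutation p = 0.1 for each, the smallest possible). These shares depend on each other and restate the values of the same genes, so they are no separate support.

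From aldolase to pyruvate the genes fell almost without exception. All 3 genes of the splitting step fell in both arms (ALDOA, ALDOC and TPI1). Of the 8 genes of the ATP-yielding phase, 6 fell and 1 rose without CGRP and 7 fell and 1 rose under CGRP. PGAM1 (phosphoglycerate mutase) had 217, 199 and 208 CPM in deprived control and 467, 458 and 455 CPM in high-glucose control libraries, a log2 fold change of -1.15 ± 0.082 (adjusted p = 3.69e-09, edgeR). PKM had 1647, 1550.2 and 1596 CPM in deprived control and 3092, 3158 and 3118 CPM in high-glucose control libraries, a log2 fold change of -0.97 ± 0.061 (adjusted p = 7.23e-10, edgeR). In neither gene did the groups overlap. BPGM, ENO2 and ENO1 fell by 0.80, 0.72 and 0.59 on the log2 scale without CGRP. ENO3, the enolase of muscle, was the riser, with a log2 fold change of 0.62 ± 0.18 under CGRP and 0.59 ± 0.18 without, at a low level of 14.6 CPM in deprived control and 9.66 CPM in high-glucose control libraries. Deprived CGRP libraries 1, 2 and 3 read 11.7, 19.5 and 12.3 CPM, and the call under CGRP was lost without library 2 (adjusted p = 0.0626, edgeR). GAPDH, commonly used as a reference gene, had 3807, 4909 and 3473 CPM in deprived CGRP and 4750.2, 4958 and 4916 CPM in high-glucose CGRP libraries. These overlap only through deprived CGRP 2. Its log2 fold change was -0.26 ± 0.11 under CGRP (adjusted p = 0.045, edgeR) and -0.24 ± 0.11 without CGRP (adjusted p = 0.0648, edgeR), and the difference between the arms was -0.023 ± 0.15 (adjusted p = 0.975, edgeR). The call under CGRP did not hold in 12 of 26 alternatives, 11 of them with 1 library left out: each of the high-glucose CGRP, high-glucose control and 2-DG CGRP libraries, and deprived CGRP 1 or 3 (adjusted p 7.85e-12 to 0.169 over all alternatives). The missed call without CGRP was gained in 12 alternatives, and under CGRP the log2 fold change was -0.45 without deprived CGRP 2 (adjusted p = 8.74e-05, edgeR). Without both libraries that stood apart GAPDH was called in both arms, and the difference between them was -0.18 (adjusted p = 0.0143, edgeR).

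At the exit the transporter gene SLC16A1 rose while LDHA fell. SLC16A1 (MCT1), which carries lactate and pyruvate in either direction, had 327, 324 and 327 CPM in deprived CGRP and 162, 167 and 161 CPM in high-glucose CGRP libraries. In the control arm it had 330.1, 324 and 327 CPM in deprived and 186, 191 and 182 CPM in high-glucose libraries. Every deprived library lay far above every high-glucose one, with log2 fold changes of 1.00 ± 0.042 under CGRP (adjusted p = 4.38e-12, edgeR) and 0.81 ± 0.042 without (adjusted p = 6.06e-11, edgeR). SLC16A3 (MCT4), the exporter typical of glycolytic cells, rose by only 0.20 without CGRP and 0.16 under CGRP on the log2 scale. Its calls were lost in 7 and 24 of 26 alternatives, with adjusted p up to 0.525 and 0.746. The libraries whose removal ended the call in the control arm were deprived control 1 and 2 and high-glucose control 1 and 2, and under CGRP all but deprived CGRP 3 and high-glucose control 3. LDHB, the lactate dehydrogenase of oxidative tissues, had 2.13 CPM in deprived control and 2.52 CPM in high-glucose control libraries and did not pass.

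Of the 4 genes of pyruvate dehydrogenase and its kinases, 3 fell in both arms. PDK3, a kinase that switches pyruvate dehydrogenase off, had 27.2, 26.9 and 25.0 CPM in deprived control and 51.9, 49.6 and 53.8 CPM in high-glucose control libraries, a log2 fold change of -0.97 ± 0.067 (adjusted p = 2.22e-09, edgeR). PDK1, a kinase of the same enzyme, fell by 0.29 without CGRP and by 0.88 under CGRP on the log2 scale. PDHA1, the catalytic subunit they phosphorylate, fell by 0.40 in both arms, and its partner PDHB did not pass (log2 fold change -0.10 under CGRP and -0.12 without). In deprived CGRP 2 PDHB read high, and without that library its log2 fold change under CGRP was -0.35 (adjusted p = 0.00142, edgeR). Its call without CGRP was gained in 3 alternatives. Per length, LDHA stood to PDHA1 as 5.45 ± 0.147 to 1 in deprived CGRP and 5.17 ± 0.293 to 1 in deprived control libraries. The ratio was 12.8 ± 0.368 in high-glucose CGRP and 10.3 ± 0.0349 in high-glucose control libraries, with no overlap (exact permutation p = 0.1 in each arm, the smallest possible). It restates the values of LDHA and PDHA1, which both fell. Together the 32 genes took 1.18, 1.30 and 1.13% of all counts in deprived CGRP libraries and 1.15, 1.13 and 1.11% in deprived control libraries. They took 2.12, 2.17 and 2.12% in high-glucose CGRP libraries and 1.87, 1.85 and 1.86% in high-glucose control libraries. This sum mainly follows the genes with most counts, in high-glucose control libraries GAPDH, ENO1, PKM and LDHA, and says little of genes with few.

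**Figure D2:**
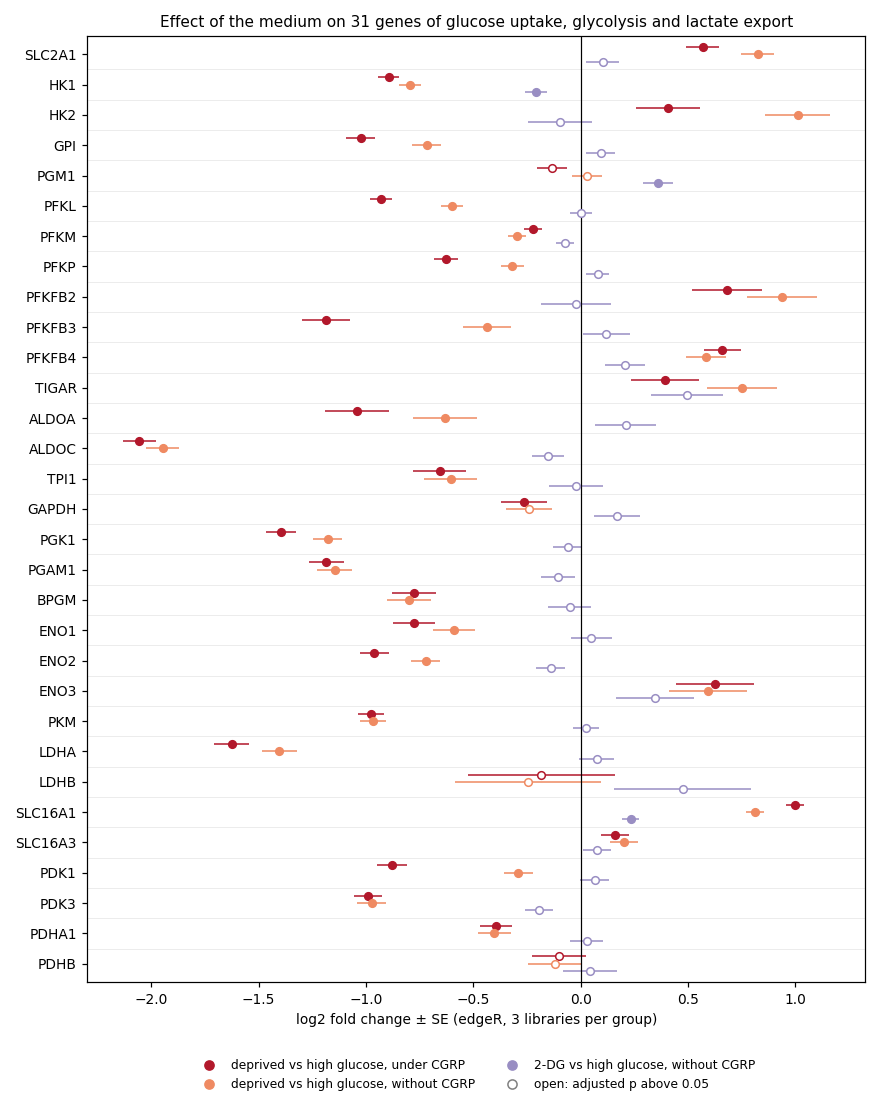
Log2 fold change ± SE (horizontal axis) of 31 genes, in pathway order from top to bottom, for deprived against high-glucose medium under CGRP (dark red) and without CGRP (orange), and for 2-DG against high glucose without CGRP (lilac); open circles did not pass the adjusted p of 0.05. Filled points of deprivation lie on the same side of 0 in both arms, ALDOC furthest down at -2.06 and -1.95, while only PGM1, SLC16A1 and HK1 are filled for 2-DG.

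Adding 2-DG to high-glucose medium raised PGM1 and SLC16A1 and lowered HK1 without CGRP. These 3 of 31 genes (9.68%) stand beside 13.8% of all genes called (7.99% upward and 5.85% downward). PGM1 had 109, 122 and 106 CPM in 2-DG control and 87.6, 87.3 and 87.6 CPM in high-glucose control libraries, a log2 fold change of 0.36 ± 0.068 (adjusted p = 0.00204, edgeR). SLC16A1 had 223, 215 and 219 CPM in 2-DG control and 186, 191 and 182 CPM in high-glucose control libraries, a log2 fold change of 0.23 ± 0.042 (adjusted p = 0.00126, edgeR). Both rose without overlap of the groups. HK1, which phosphorylates 2-DG, fell, with 229, 232 and 223 CPM in 2-DG control against 265, 264 and 262 CPM in high-glucose control libraries, a log2 fold change of -0.21 ± 0.051 (adjusted p = 0.0106, edgeR). Its adjusted p was 0.0505 without 2-DG control 3 and 0.0678 with no filter on low counts. The other 28 genes had log2 fold changes between -0.19 (PDK3) and 0.49 (TIGAR). The count was 5 without 2-DG control 2, 5 without deprived CGRP 2 and 11 without both, where 32.5% of all genes were called. With 1 library left out at a time, the calls over all genes ranged from 1593 to 4274. Under CGRP 0 of 31 genes passed with edgeR, where 2.39% of all genes did (1.52% upward and 0.870% downward). In that comparison 3 genes had an unadjusted p under 0.05 (the share over all genes is not given here), and DESeq2 called 1. Without the 2 libraries that stood apart 6 passed, where 19.5% of all genes did. HK2 was at 141 and 135 CPM in 2-DG CGRP and 2-DG control libraries, against 149.8 and 145 CPM in high-glucose CGRP and high-glucose control libraries. The ratio of LDHA to PDHA1 per length was 14.1 ± 0.151 in 2-DG CGRP against 12.8 ± 0.368 in high-glucose CGRP libraries, and 10.7 ± 0.0639 in 2-DG control against 10.3 ± 0.0349 in high-glucose control libraries, without overlap in either arm (exact permutation p = 0.1, the smallest possible).

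Set against glucose deprivation directly, 2-DG differed in 26 of the 31 genes without CGRP, 21 higher and 5 lower, where 57.5% of all genes differed (28.9% higher and 28.6% lower). This comparison shares its deprived control libraries with the comparison of deprivation, and its 2-DG control libraries with that of 2-DG against high glucose. ALDOC had 92.4, 108 and 89.9 CPM in 2-DG control and 27.4, 27.3 and 28.9 CPM in deprived control libraries, a log2 fold change of 1.79 ± 0.077 (adjusted p = 9.18e-12, edgeR). LDHA had 2101, 2450.0 and 2074 CPM in 2-DG control and 834, 778 and 766 CPM in deprived control libraries, a log2 fold change of 1.48 ± 0.081 (adjusted p = 1.97e-10, edgeR). Both were far higher with 2-DG. The 5 genes lower with 2-DG than with deprivation were HK2 (-1.11), PFKFB2 (-0.96), SLC2A1 (-0.72), SLC16A1 (-0.58) and PFKFB4 (-0.38) on the log2 scale. Without 2-DG control 2 and deprived CGRP 2 the count was 28, where 66.8% of all genes were called.

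In deprived medium CGRP changed 8 of the 31 genes, 3 upward and 5 downward, where 13.0% of all genes changed (6.38% upward and 6.58% downward). PFKFB4, a PFKFB isoform induced by hypoxia, had 11.9, 10.1 and 12.7 CPM in deprived CGRP and 6.49, 7.27 and 6.77 CPM in deprived control libraries. It rose, the groups not overlapping, with a log2 fold change of 0.76 ± 0.087 (adjusted p = 3.62e-05, edgeR). ALDOC rose as well (0.28 ± 0.077, adjusted p = 0.024, edgeR), and so did PGAM1 (0.28 ± 0.081, adjusted p = 0.0326, edgeR). HK2 had 239.9, 134 and 222 CPM in deprived CGRP and 307, 289 and 279 CPM in deprived control libraries. It fell, with a log2 fold change of -0.56 ± 0.15 (adjusted p = 0.0225, edgeR), and by 0.33 without the 2 libraries that stood apart. PDK1 had 60.7, 57.3 and 59.1 CPM in deprived CGRP and 73.1, 74.8 and 70.8 CPM in deprived control libraries and fell (-0.30 ± 0.069, adjusted p = 0.00839, edgeR). All 3 phosphofructokinase subunits fell with it, PFKP by 0.26, PFKM by 0.20 and PFKL by 0.17 on the log2 scale. In a fit of the 6 deprived libraries alone edgeR called 0 of 31 genes, while DESeq2 on all libraries called 9. In the fit of the 6 libraries 9 genes had an unadjusted p under 0.05 (the share over all genes is not given here). Without deprived control 1, 2 or 3 the count was 4, 4 and 5, and without the 2 libraries that stood apart it was 16, where 28.7% of all genes were called. With 1 library left out at a time, the calls over all genes ranged from 1282 to 2726. HK2 and PGAM1 lost their calls without any 1 of the deprived control libraries, ALDOC without deprived CGRP 1 or 2 or deprived control 1 or 2, and PFKL in 16 of 26 alternatives, at adjusted p up to 0.285, 0.261, 0.152 and 0.286. The calls of PFKFB4, PDK1, PFKP and PFKM held with every single library left out.

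In 2-DG medium CGRP changed 13 of 31 genes, 10 upward and 3 downward, where 12.2% of all genes changed (5.31% upward and 6.89% downward). ALDOC had 149.5, 138 and 134 CPM in 2-DG CGRP and 92.4, 108 and 89.9 CPM in 2-DG control libraries, a log2 fold change of 0.54 ± 0.073 (adjusted p = 0.000141, edgeR). PGK1 had 1272, 1239 and 1209 CPM in 2-DG CGRP and 928, 1041 and 909 CPM in 2-DG control libraries, a log2 fold change of 0.37 ± 0.069 (adjusted p = 0.00188, edgeR). Both rose with no overlap. SLC16A1 had 172, 182 and 180.3 CPM in 2-DG CGRP and 223, 215 and 219 CPM in 2-DG control libraries and fell (-0.30 ± 0.042, adjusted p = 0.000168, edgeR). The other risers were PGAM1, ENO2, PFKFB4, PDK3, LDHA, PDK1, GPI and HK1, by 0.19 to 0.46 on the log2 scale, and the other genes that fell were ENO3 (-0.65) and PFKM (-0.17). ENO3 read 10.4, 16.3 and 10.3 CPM in 2-DG control libraries, the high value being 2-DG control 2. The count was 7 without 2-DG CGRP 1 and 21 without the 2 libraries that stood apart, where 28.4% of all genes were called. With 1 library left out at a time, the calls over all genes ranged from 1447 to 3853. The calls of ALDOC, SLC16A1, ENO2, PGAM1, PGK1 and PDK3 held in all 26 alternatives, and those of GPI, HK1, ENO3, PFKFB4, PDK1, LDHA and PFKM did not, at adjusted p up to 0.203. Each of these 7 was lost without at least 1 library of the 2-DG groups, PFKM without 2-DG CGRP 1 and ENO3 without 2-DG control 2 or any 2-DG CGRP library.

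In high-glucose medium CGRP changed 9 of 31 genes, 7 upward and 2 downward, where 4.33% of all genes changed (2.04% upward and 2.29% downward). PFKFB4 had 7.44, 7.26 and 7.35 CPM in high-glucose CGRP and 4.17, 4.60 and 4.91 CPM in high-glucose control libraries, a log2 fold change of 0.69 ± 0.092 (adjusted p = 0.000309, edgeR). ALDOC had 144, 141 and 139 CPM in high-glucose CGRP and 112, 102 and 108 CPM in high-glucose control libraries, a log2 fold change of 0.39 ± 0.073 (adjusted p = 0.00464, edgeR). The groups overlapped in neither gene. PFKM fell, with 100.4, 97.0 and 101 CPM in high-glucose CGRP and 122, 119 and 119 CPM in high-glucose control libraries (-0.27 ± 0.042, adjusted p = 0.001, edgeR), and SLC16A1 fell too (-0.19 ± 0.042, adjusted p = 0.0144, edgeR). The other risers were PFKFB3 (0.43), PGAM1 (0.32), PGK1 (0.31), GPI (0.29) and PDK1 (0.28) on the log2 scale. LDHA missed the threshold, with 2512, 2638 and 2500.4 CPM in high-glucose CGRP and 2081, 2142 and 2072 CPM in high-glucose control libraries (log2 fold change 0.28 ± 0.08, adjusted p = 0.0594, edgeR), and was called higher in 10 of 26 alternatives, DESeq2, RLE factors and leaving out deprived CGRP 2 among them (adjusted p down to 1.66e-10). The calls of PFKFB4, ALDOC and PFKM held in all 26 alternatives. Those of GPI, PGAM1, PFKFB3, PDK1, PGK1 and SLC16A1 were each lost without at least 1 of the high-glucose libraries, at adjusted p up to 0.254 over the alternatives. The count was 3, 4 and 5 without high-glucose CGRP 1, 2 and 3, and 4, 3 and 4 without high-glucose control 1, 2 and 3. It was 15 without deprived CGRP 2 and 21 without both libraries that stood apart, where 19.1% of all genes were called. With 1 library left out at a time, the calls over all genes ranged from 353 to 1565.

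The high-glucose and 2-DG comparisons of CGRP share no library. The 8 genes called in both were ALDOC, GPI, PDK1, PFKFB4, PFKM, PGAM1, PGK1 and SLC16A1, and all 8 moved in the same direction in both. How many of all genes were called in both, or agreed in direction, is not given here. The agreement is therefore not shown to be particular to these genes. With CGRP, PFKFB3 made up 70.9, 70.4 and 69.9% of the 3 PFKFB genes per length in 2-DG medium, against 66.1, 67.3 and 63.8% in 2-DG control libraries. In high glucose it made up 71.1, 71.4 and 70.5% with CGRP, against 64.6, 64.7 and 62.5% in control libraries. In neither medium did the arms overlap (exact permutation p = 0.1, the smallest possible). LDHA stood to PDHA1 as 13.9, 14.2 and 14.1 to 1 with CGRP in 2-DG medium, against 10.7, 10.6 and 10.7 in control libraries, and as 12.9, 13.1 and 12.4 with CGRP in high glucose, against 10.3, 10.4 and 10.3 in control libraries (exact permutation p = 0.1 for each). In deprived medium the same ratio overlapped between the arms, with 5.61, 5.40 and 5.33 in CGRP and 5.51, 5.01 and 4.99 in control libraries (exact permutation p = 0.3). PFKFB4 took 13.6 ± 2.10% of the 3 PFKFB genes in deprived CGRP libraries and 6.44 ± 0.475% in deprived control libraries, without overlap. HK2 made up less of HK1 plus HK2 in every deprived CGRP library than in any deprived control library, lowest in deprived CGRP 2 (exact permutation p = 0.1 for both, the smallest possible).

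**Figure D3:**
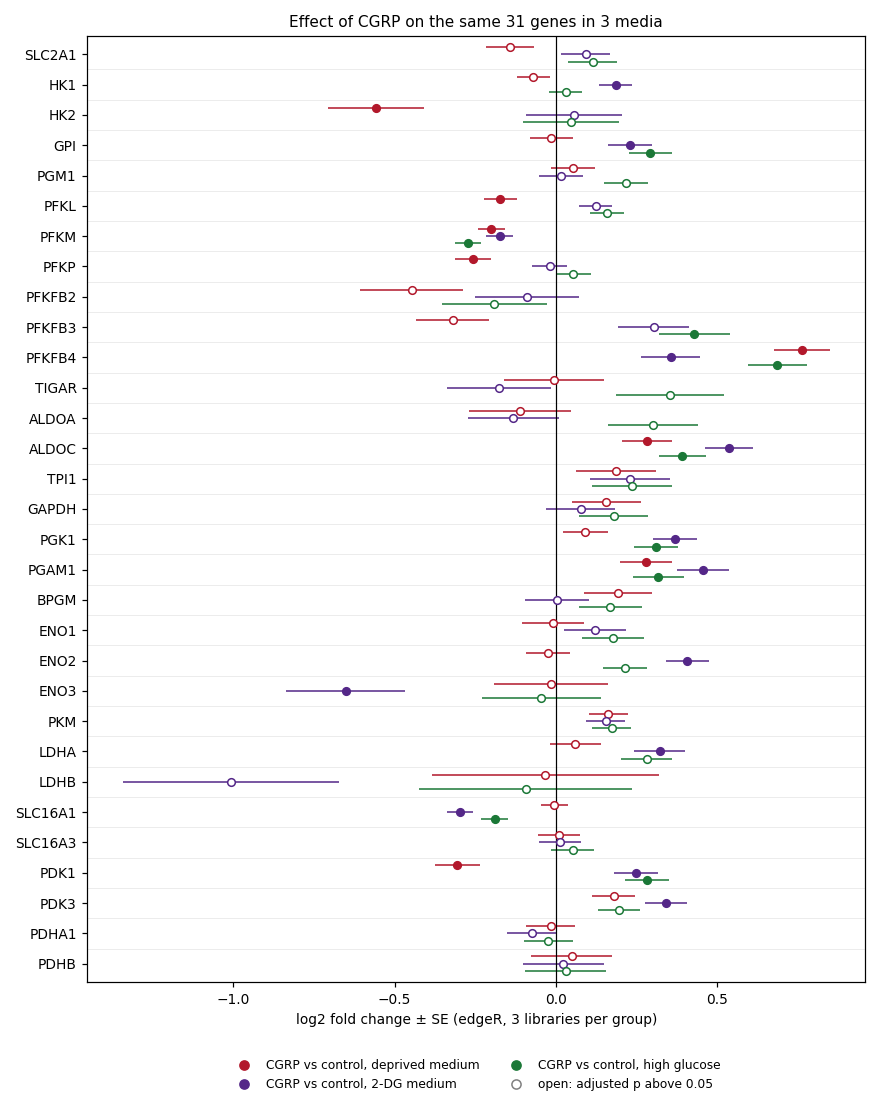
Log2 fold change ± SE (horizontal axis) of CGRP against control for 31 genes in pathway order, in deprived (red), 2-DG (purple) and high-glucose medium (green); open circles did not pass the adjusted p of 0.05. PFKFB4 and ALDOC are filled to the right in all 3 media and PFKM to the left, while PDK1 is filled to the right in 2-DG (0.25) and high glucose (0.28) and to the left in deprived medium (-0.30).

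Whether the effect of CGRP depended on glucose was tested as an interaction. Between deprived and high-glucose medium 3 of 31 genes differed, all with a lower CGRP effect in deprived medium, where 1.55% of all genes differed (0.903% higher and 0.650% lower). PDK1 had a CGRP effect of -0.30 in deprived medium and 0.28 in high glucose, a difference of -0.59 ± 0.10 (adjusted p = 0.00418, edgeR), and this call held in all 26 alternatives. In deprived medium its CGRP libraries lay below all 3 controls. In high glucose they lay above, with 111, 114 and 101 CPM in CGRP and 89.7, 91.3 and 86.4 CPM in control libraries. PFKFB3 had 39.6, 26.5 and 39.6 CPM in deprived CGRP and 46.2, 42.8 and 43.1 CPM in deprived control libraries. In high glucose it had 84.4, 78.9 and 77.5 CPM with CGRP and 61.1, 61.0 and 56.6 CPM in control libraries. The arms did not overlap in either medium, and the difference in effect was -0.75 ± 0.16 (adjusted p = 0.0228, edgeR). The CGRP effect on PFKFB3 in deprived medium did not pass by itself (-0.32, adjusted p = 0.0745, edgeR). PFKL differed by -0.33 ± 0.073 (adjusted p = 0.0314, edgeR), and its CGRP effect in high glucose did not pass by itself (0.16, adjusted p = 0.109, edgeR). The calls of PFKFB3 and PFKL were lost in 8 and 13 of 26 alternatives, at adjusted p up to 0.0858 and 0.189. The count was 1 without high-glucose CGRP 1 or 2, high-glucose control 2 or 3, or deprived control 1. It was 7 without deprived CGRP 2 and 17 without both libraries that stood apart, where 13.5% of all genes were called. With 1 library left out at a time, the calls over all genes ranged from 162 to 582. HK2 had a CGRP effect of -0.56 in deprived and 0.047 in high-glucose medium, and the difference did not pass (-0.60 ± 0.21, adjusted p = 0.211, edgeR). Without both libraries that stood apart it was -0.38 and passed (adjusted p = 0.0169, edgeR). Between 2-DG and high glucose 0 of 31 genes differed in their CGRP effect with edgeR, where 0.391% of all genes did (0.121% higher and 0.270% lower). Of the 31, 5 had an unadjusted p under 0.05 (the share over all genes is not given here), and DESeq2 called 0. Without the 2 libraries that stood apart 5 passed, where 5.91% of all genes did.

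**Figure D4:**
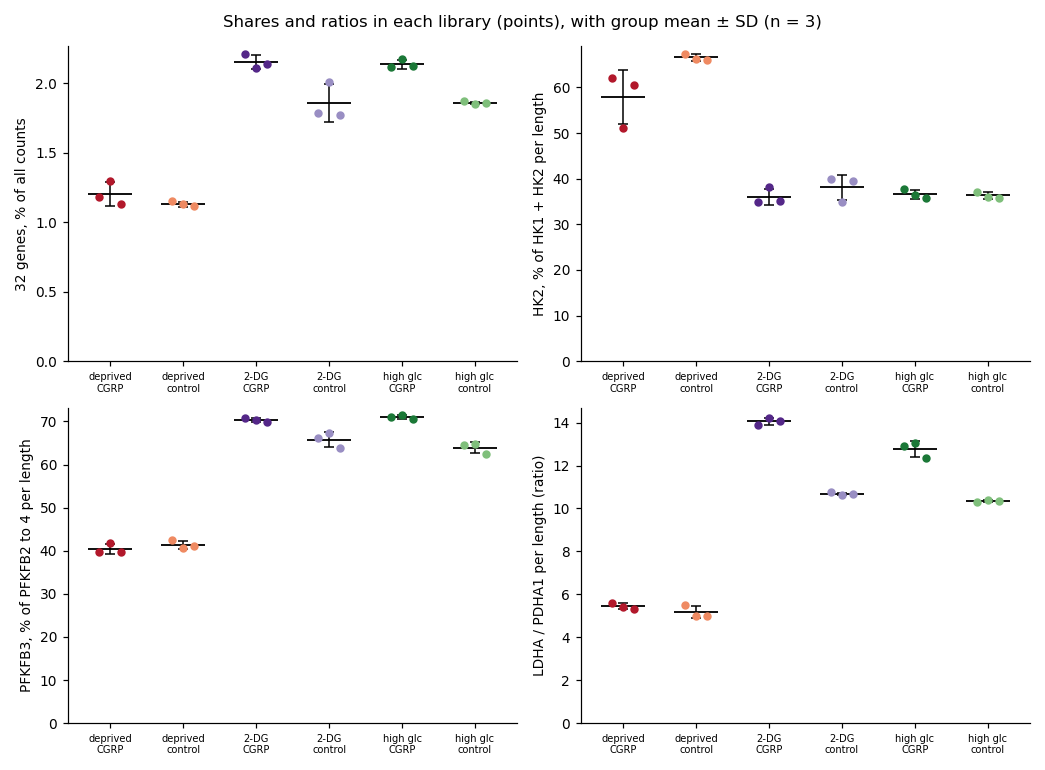
Share of all counts on the 32 genes (%), HK2 as a share of HK1 plus HK2 (%), PFKFB3 as a share of 3 PFKFB genes (%) and the ratio of LDHA to PDHA1, the last 3 per length, in each library (points) with the mean (line) and SD (error bar) of 3 libraries; vertical axes start at 0. Deprived libraries are apart from all others in each panel, and the LDHA to PDHA1 ratio is higher with CGRP than in control in 2-DG and high-glucose medium.

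Genes next to the pathway were read from lists of related genes. Of 17 tested other hexose transporters and isoenzymes, 3 rose and 7 fell with deprivation without CGRP (median log2 fold change -0.090, against 0.02 over all genes). All counts of related genes for deprivation stand beside 60.6% of all genes called, 31.0% upward and 29.6% downward. SLC2A12 (GLUT12) fell to 2.19 ± 0.256 CPM in deprived control libraries, against 30.9 ± 0.888 CPM in high-glucose control libraries, a log2 fold change of -3.82 ± 0.13 (adjusted p = 4.02e-13, edgeR). HKDC1, a hexokinase-like enzyme, rose to 5.30 ± 0.293 CPM in deprived control libraries, against 0.428 ± 0.136 CPM in high-glucose control libraries. Of 10 other genes of pyruvate import and mitochondrial pyruvate use, 1 rose and 4 fell. The riser was MPC1, a subunit of the mitochondrial pyruvate carrier, at 50.2 ± 1.59 CPM in deprived control and 19.5 ± 1.66 CPM in high-glucose control libraries. Of 12 glycogen genes 6 rose and 5 fell (median 0.21), among them PYGB, brain-type glycogen phosphorylase, upward (1.03 ± 0.047) and PYGL, the liver type, downward (-0.51 ± 0.052). Of 8 pentose phosphate genes 3 rose and 2 fell, TKT (transketolase, -0.37 ± 0.058) being among those that fell. Of 4 tested gluconeogenic genes 2 rose and 2 fell, and PCK2, the mitochondrial phosphoenolpyruvate carboxykinase, rose to 155 ± 3.56 CPM in deprived control libraries, against 41.9 ± 1.68 CPM in high-glucose control libraries (1.89 ± 0.10, adjusted p = 5.31e-11, edgeR). Of 12 transcription factors tied to glycolytic genes 3 rose and 3 fell (median 0.013). HIF1A and EPAS1, which encode HIF alpha subunits, fell by 0.90 and 1.45 on the log2 scale, and MYC rose (0.43 ± 0.052). HIF alpha subunits are regulated mainly by protein breakdown, which RNA does not show.

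MYC fell with CGRP in all 3 media. Its level was 91.5 ± 2.76 CPM in deprived CGRP and 133 ± 4.81 CPM in deprived control libraries, 75.1 ± 3.33 CPM in 2-DG CGRP and 155 ± 2.94 CPM in 2-DG control libraries, and 53.0 ± 3.23 CPM in high-glucose CGRP and 98.6 ± 1.35 CPM in high-glucose control libraries. The log2 fold changes were -0.54 ± 0.052, -1.05 ± 0.053 and -0.90 ± 0.053 in that order of media. Of the 12 transcription factors 2 rose and 1 fell with CGRP in deprived medium, 1 rose and 1 fell in 2-DG medium, and 0 rose and 1 fell in high glucose. Of the 12 glycogen genes 1 rose and 2 fell with CGRP in deprived medium, 6 rose and 1 fell in 2-DG medium, and 4 rose and 0 fell in high glucose. Of all genes 13.0%, 12.2% and 4.33% were called with CGRP in these media. PPP1R3B, a glycogen-targeting subunit of protein phosphatase, fell in deprived medium to 22.1 ± 5.63 CPM with CGRP, against 38.8 ± 5.10 CPM in control libraries (-0.81 ± 0.14, adjusted p = 0.00138, edgeR, but 0.14 in a fit of the deprived libraries alone). Its CGRP effect differed between deprived medium and high glucose by -1.16 ± 0.20 (adjusted p = 0.00585, edgeR). PCK2 fell with CGRP in 2-DG medium (-0.94 ± 0.10) and in high glucose (-0.67 ± 0.10), whereas in deprived medium its log2 fold change was 0.03 and did not pass. It was -0.10 in deprived medium without both libraries that stood apart (adjusted p = 0.0445, edgeR). The difference in its CGRP effect between deprived medium and high glucose was 0.70 ± 0.13 (adjusted p = 0.0116, edgeR). SLC2A12 rose with CGRP in deprived (0.80 ± 0.15, with an adjusted p of 0.0573 in a fit of the deprived libraries alone) and in 2-DG medium (0.77 ± 0.10), and in high glucose it did not pass (0.23 ± 0.10), though it was called higher in 3 of 26 alternatives.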

How the data were processed

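RNA of 18 Cal27 cultures, extracted with Trizol and kept where the RNA integrity number was above 8, was sequenced as Illumina libraries, per the labels' protocols. The deposited table holds raw whole-number counts per gene and library, per the file headers. Reads were aligned with HISAT2 2.0.4, per the submitters' processing notes, which name both hg19 and GRCh38. For the counting program, annotation, strand setting and treatment of overlapping genes the sources used here give nothing. Symbols were found for 60370 of 60683 IDs in a gene name table, 42013 of them other than an Ensembl ID.

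Genes with at least 10 counts in enough libraries and 15 in total (filterByExpr) left 18159. With TMM scaling, edgeR 4.0.16 under R 4.3.3 fitted 1 coefficient per group over all 18 libraries, leaving 12 residual degrees of freedom, and contrasts were tested by robust quasi-likelihood F. The test was checked on simulated counts, for deprivation without CGRP only. It called 48% of 50 genes lowered 1.5-fold and 50% of 50 raised 1.5-fold. Of genes lowered or raised 2-fold it called 78% and 72%, and of unchanged genes 0.0501%. The simulation did not include the trend with exon length of the 2 libraries that stood apart. Totals of 28038260 to 32661768 counts per library limit the precision of low genes such as SLC2A3. All 32 genes could be named; full statistics went to at most 10 per comparison, those with the smallest adjusted p, and related lists gave at most 4 genes each by the same order. GAPDH with deprivation was singled out beyond that rule after its values were seen. The genes, lists and tests were chosen with earlier results of these data known. The shares and ratios were added after the values were seen. They are built from values of genes also described singly, so they are no separate support for those results. They number 6 measures in 8 comparisons, each with a two-sided exact permutation test (scipy 1.17.1) whose p cannot go below 0.1, before or after adjustment.

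Replicate pairs of a group differed by more than sampling noise (chi-square per degree of freedom 1.48 to 103), so none was counted as 1 library. Alternatives were RLE factors, total-count scaling, DESeq2 1.42.0, no filter, a stricter filter (3 libraries over 1 CPM, and 2 CPM on average), the compared groups alone, a replicate block, leaving out the 2 libraries that stood apart, and leaving out each library. No sequence is shown for SLC2A3, PFKFB2 and SLC16A1.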

Additional observations from a re-analysis of the deposited data

Results flagged for a closer look

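The response to CGRP of 3 genes differed between glucose-deprived and high-glucose medium by the interaction test in edgeR, over 3 libraries per group. PDK1 differed by -0.59 on the log2 scale (adjusted p = 0.00418), with 59.0 ± 1.72 CPM in deprived CGRP and 72.9 ± 2.04 CPM in deprived control libraries, and 108 ± 6.78 CPM in high-glucose CGRP and 89.1 ± 2.49 CPM in high-glucose control libraries. All 3 CGRP libraries were below all 3 controls in deprived medium and above them in high glucose. PFKFB3 differed by -0.75 (adjusted p = 0.0228), with 35.2 ± 7.56 CPM in deprived CGRP and 44.0 ± 1.88 CPM in deprived control libraries, and 80.2 ± 3.63 CPM in high-glucose CGRP and 59.6 ± 2.60 CPM in high-glucose control libraries. PFKL differed by -0.33 (adjusted p = 0.0314), with 83.5 ± 3.51 CPM in deprived CGRP and 94.0 ± 0.531 CPM in deprived control libraries, and 159 ± 3.80 CPM in high-glucose CGRP and 143 ± 4.43 CPM in high-glucose control libraries. The CGRP effect by itself did not pass for PFKFB3 in deprived medium (-0.32, adjusted p = 0.0745, edgeR) or for PFKL in high glucose (0.16, adjusted p = 0.109, edgeR). In deprived CGRP 2 PFKFB3 read low, and without that library and 2-DG control 2 the differences were -0.58 for PFKFB3, -0.57 for PDK1 and -0.35 for PFKL.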

How the results depend on the processing

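None of the 117 calls on the 32 genes changed direction in any of the 26 alternatives, and 87 stayed past the threshold in all of them: 26 of 27 for deprivation without CGRP, 23 of 28 under CGRP, 26 of 26 for 2-DG against deprivation, 2 of 3 for 2-DG against high glucose, 0 of 8, 6 of 13 and 3 of 9 for CGRP in deprived, 2-DG and high-glucose medium, and 1 of 3 for the interaction with deprivation. Counts of these genes for CGRP in high glucose (9) became 15 with DESeq2, 21 with only the groups compared and 21 without the 2 libraries that stood apart. For CGRP in deprived medium (8) they became 5 with no filter, 0 with only the groups compared and 16 without those 2 libraries, and in 2-DG medium (13) 8, 7 and 21 under the same settings. For 2-DG against high glucose without CGRP (3) they became 5 with total-count scaling and 11 without the 2 libraries, and under CGRP (0) 1 with DESeq2, 4 with only the groups compared and 6 without the 2 libraries. For the interaction of CGRP with deprivation (3) they became 6 with DESeq2, 5 with the stricter filter, 1 with only the groups compared and 17 without the 2 libraries, and for that with 2-DG (0) 5 without the 2 libraries. The cause was not tested beyond the construction of each setting. Leaving out 1 library at a time gave 3 to 15 for CGRP in high glucose, 4 to 10 in deprived medium and 7 to 17 in 2-DG medium, 26 to 28 and 24 to 27 for deprivation without and under CGRP, 2 to 5 and 0 to 0 for 2-DG against high glucose without and under CGRP, 26 to 28 for 2-DG against deprivation, and 1 to 7 and 0 to 0 for the interactions with deprivation and 2-DG. Over all genes the same step gave 353 to 1565, 1282 to 2726 and 1447 to 3853 for CGRP in these media. For deprivation it gave 10064 to 12288 without and 10090 to 11781 under CGRP. For 2-DG against high glucose it gave 1593 to 4274 and 157 to 1238, and against deprivation 9434 to 11791. The interactions had 162 to 582 with deprivation and 13 to 324 with 2-DG.

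Over all genes, only the groups compared gave 3653, 141 and 1194 calls for CGRP in high glucose, deprived and 2-DG medium, against 787, 2354 and 2216 in the fit of all libraries. Leaving out the 2 libraries gave 3520, 5307 and 5249 calls, and 5997 and 3598 for 2-DG against high glucose without and under CGRP, against 2513 and 434. No filter gave 474 and 1463 for CGRP in high glucose and deprived medium, and 246 for 2-DG under CGRP. For 2-DG against high glucose only the groups compared gave 1551 calls without and 2363 under CGRP, and DESeq2 gave 710 under CGRP. The interaction with 2-DG had 71 calls, 228 with DESeq2, 30 with no filter, 142 with only the groups compared and 1092 without the 2 libraries. The interaction with deprivation had 282 calls, 519 with DESeq2, 163 with no filter, 164 with only the groups compared and 2500 without the 2 libraries. Total-count scaling moved the median log2 fold change of all genes for deprivation without CGRP to -0.13, against 0.02. Replicate numbers did not pair the libraries: the correlation of same-numbered deviations was below 0.1 for at least 1 pair in each comparison, down to -0.484. With the replicate block the counts were 10, 8 and 13 for CGRP in high glucose, deprived and 2-DG medium, 28 and 27 for deprivation without and under CGRP, 4 and 0 for 2-DG against high glucose, 26 for 2-DG against deprivation, and 3 and 0 for the interactions. Of the named results that missed the threshold, PCK2 with CGRP in deprived medium turned to -0.10 without the 2 libraries and was then called. Depth limits low genes, above all SLC2A3, at 80 counts over 18 libraries.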
